A study of Mus musculus with 20 samples.

Results

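The collagen genes of the mouse were taken as every row of both raw count tables whose symbol had the form Col, a number, the letter a and a second number. This rule found 44 genes of 50559 in the tables. They comprise 11 genes for fibrillar collagens, 6 for the type IV collagens of basement membranes and 27 for other collagen types, Col18a1 among them. Of these 44 genes, 24 reached at least 1 CPM (counts scaled to a common library size) in at least 5 libraries and were tested, namely 9 fibrillar, 3 basement membrane and 12 other collagens. The 20 collagens that did not pass are accounted for further on.

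RNA sequencing was performed on 20 libraries of C57BL/6J female mice, 5 in each of 4 groups. Tumors were induced in young adult wild type mice by hydrodynamic gene transfer, a rapid tail vein injection that brings plasmids into hepatocytes. The plasmids were given together with the Sleeping Beauty transposase. Aldafermin+MYC tumors carried MYC and the FGF19 analog Aldafermin, FGF19+MYC tumors carried MYC and human FGF19, and sgTrp53+MYC tumors carried MYC and a CRISPR guide to Trp53. The guide was on a lentiviral CRISPR vector, whereas MYC, FGF19 and Aldafermin were on transposon plasmids. Control livers are labelled as healthy and non treated, and the study describes its control mice as having received a plasmid for a red fluorescent protein. All 3 tumor groups thus shared the MYC plasmid and the transposase, and MYC was driven by a general promoter of the plasmid in the cells that took it up. Each library came from bulk tissue of an individual tumor or liver of a separate mouse. The treatment field of the sgTrp53+MYC samples reads none, so their group was taken from the sample titles. In bulk tissue, fewer cells of a type and less RNA per cell cannot be told apart.

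Collagens are secreted proteins whose chains wind into a triple helix. Fibrillar collagens such as types I, III and V assemble into the fibers that give tissue and scars their strength, type IV forms the network of basement membranes, and the remaining types decorate fibrils, form beaded filaments or span the cell membrane. In liver, hepatic stellate cells and portal fibroblasts are the known sources of fibrillar collagen, whereas hepatocytes are a known source of collagen XVIII, a basement membrane proteoglycan whose C-terminal fragment is endostatin.

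The gene targeted by the guide was examined first. Trp53, coding for the tumor suppressor p53, was counted at 18.7, 79.9, 35.4, 51.0 and 48.8 CPM in sgTrp53+MYC tumors 1 to 5, at 90.8 to 176 CPM in the other tumors and at 28.8 to 36.4 CPM in livers. All sgTrp53+MYC tumors lay below the other 10 tumors, with a log2 difference of 1.57 (SE 0.24, adjusted p = 0.00016, edgeR quasi-likelihood test) between the mean of Aldafermin+MYC and FGF19+MYC tumors and the sgTrp53+MYC tumors. Counts on genes ranged from 18004977 to 66354724 reads per library, with all sgTrp53+MYC libraries at 54042455 or more and the others at 44427184 or fewer. The sgTrp53+MYC libraries stand alone in 1 of the 2 tables and also differed in the share of reads that did not align (5.34% to 6.82%, against 15.3% to 34.0%) and of reads that were ambiguous between genes (11.1% to 14.6%, against 3.03% to 6.30%), so that the effect of table and the effect of group cannot be told apart in any comparison with them.

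Summed over the 44 genes, collagen transcripts lay below all livers in every tumor except Aldafermin+MYC replicates 3 and 4 and FGF19+MYC replicate 5. The makeup of the sum differed between livers and all tumors. CPM here use the library size scaled by edgeR's TMM factors. Collagen transcripts summed to 2140 to 2660 CPM in livers, 864 to 4610 CPM in Aldafermin+MYC tumors, 840 to 2180 CPM in FGF19+MYC tumors and 598 to 1680 CPM in sgTrp53+MYC tumors. In livers, Col18a1 alone made up 80.2% to 85.7% of this sum, against 18.7% to 56.8% over the 15 tumors. Liver collagen transcripts were thus those of a single gene to a larger share than in any tumor. Fibrillar collagens made up 4.78% to 7.82% in livers, 20.4% to 48.3% in Aldafermin+MYC tumors, 18.5% to 38.8% in FGF19+MYC tumors and 20.5% to 35.0% in sgTrp53+MYC tumors. Type IV collagens, the basement membrane class used here (Col4a1 to Col4a6), made up 2.83% to 5.53% in livers and 16.2% to 28.4% in tumors. Col18a1, also a component of basement membranes, is not in this class, and its share was lower in tumors. The ranges of livers and tumors did not overlap for any of these 3 shares. The shares are parts of the same sum, so a lower share of Col18a1 raises the others, and they are not separate results. As CPM, fibrillar collagens summed to 102 to 186 in livers and 155 to 2220 in tumors. Type IV collagens summed to 73.4 to 133 CPM in livers and 99.5 to 1070 CPM in tumors, so both sums overlapped. Without Col18a1, the sum was 325 to 477 CPM in livers and 313 to 3750 CPM in tumors.

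**Figure D1:**
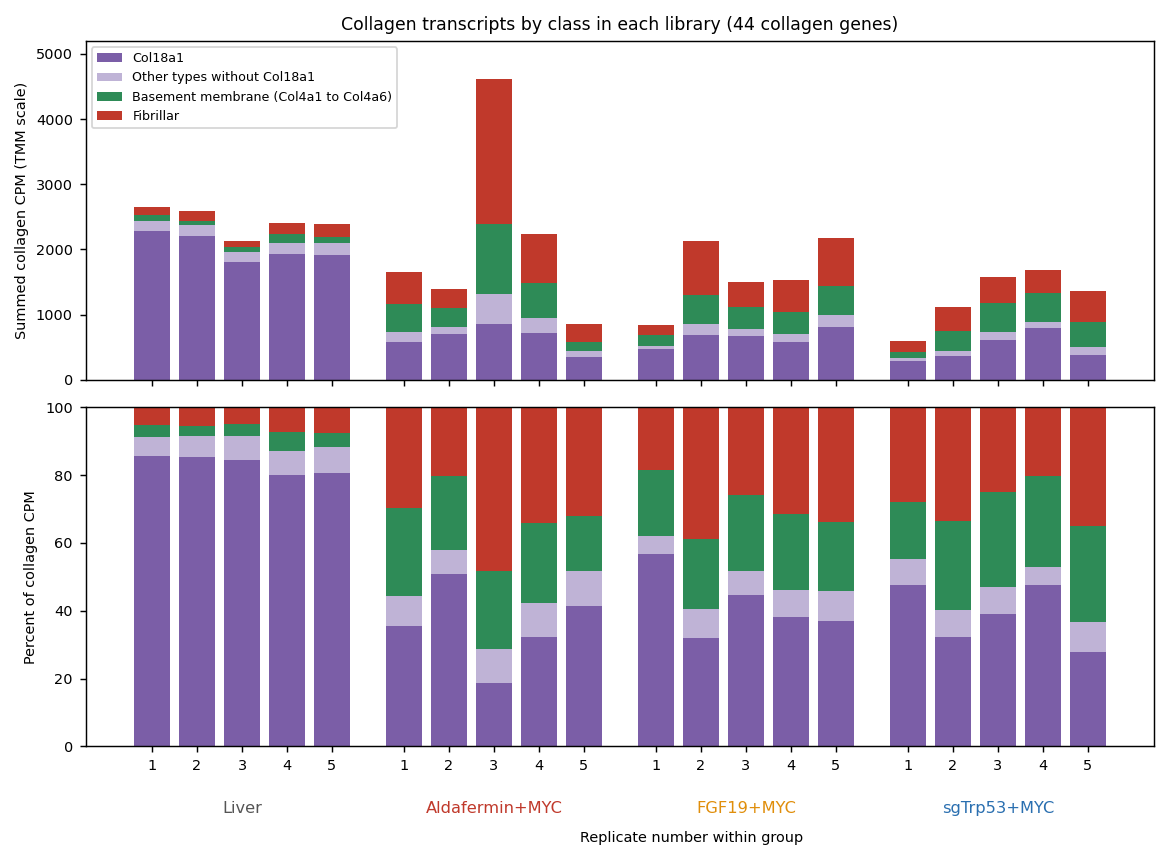
Summed CPM of the 44 collagen genes (top) and its percent makeup (bottom) in each of the 20 libraries, by group and replicate number, split into Col18a1, other types without Col18a1, basement membrane and fibrillar collagens. Col18a1 fills 80.2% to 85.7% of the bar in livers and 18.7% to 56.8% in tumors, and Aldafermin+MYC replicate 3 reaches the highest sum, 4610 CPM.

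The comparison of tumors with livers asked how the collagens of the tumor tissue differed from those of the organ they grew in. In the mean of Aldafermin+MYC and FGF19+MYC tumors (the pooled tumors) against livers, 12 of the 24 tested collagens were higher and 6 were lower at an adjusted p under 0.05, against 39.2% of all 14333 tested genes higher and 34.5% lower. In sgTrp53+MYC tumors against livers, 9 collagens were higher and 6 lower, against 36.9% of all genes higher and 33% lower. In either direction, 75% of the tested collagens were called for the pooled tumors, against 73.7% of all genes, and 62.5% for sgTrp53+MYC tumors, against 69.9% of all genes, so that the number called was near the background in each comparison. The median log2 fold change of the 24 collagens was 1.08 for the pooled tumors and 0.18 for sgTrp53+MYC tumors, beside 0.10 and 0.07 over all genes. Without Aldafermin+MYC replicate 3 and with the same 24 genes, the median for the pooled tumors was 0.71. Both comparisons use the same livers. Col1a1, Col1a2, Col3a1, Col5a2, Col11a1, Col4a1, Col4a2 and Col8a1 were called higher in each of them, and Col5a3, Col4a5, Col13a1, Col14a1, Col18a1 and Col20a1 were called lower in each. The counts of higher collagens include Col11a1 and, for sgTrp53+MYC tumors only, Col7a1. Both reached 1 CPM in 0 livers and entered the test through tumors alone, so their calls are a description. Col8a1, in both counts, reached 1 CPM in only 1 liver and also entered through tumors, so its calls are a description too. Livers had lower TMM factors than tumors, and with library size alone the median of all genes moved to 0.939 and 0.954. Under that scaling, 15 collagens were higher and 3 lower for the pooled tumors, and 12 higher and 4 lower for sgTrp53+MYC tumors. Over all 14333 genes, 11391 were called in either direction for the pooled and 10957 for sgTrp53+MYC tumors. No collagen called in the main analysis changed its direction.

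**Figure D2:**
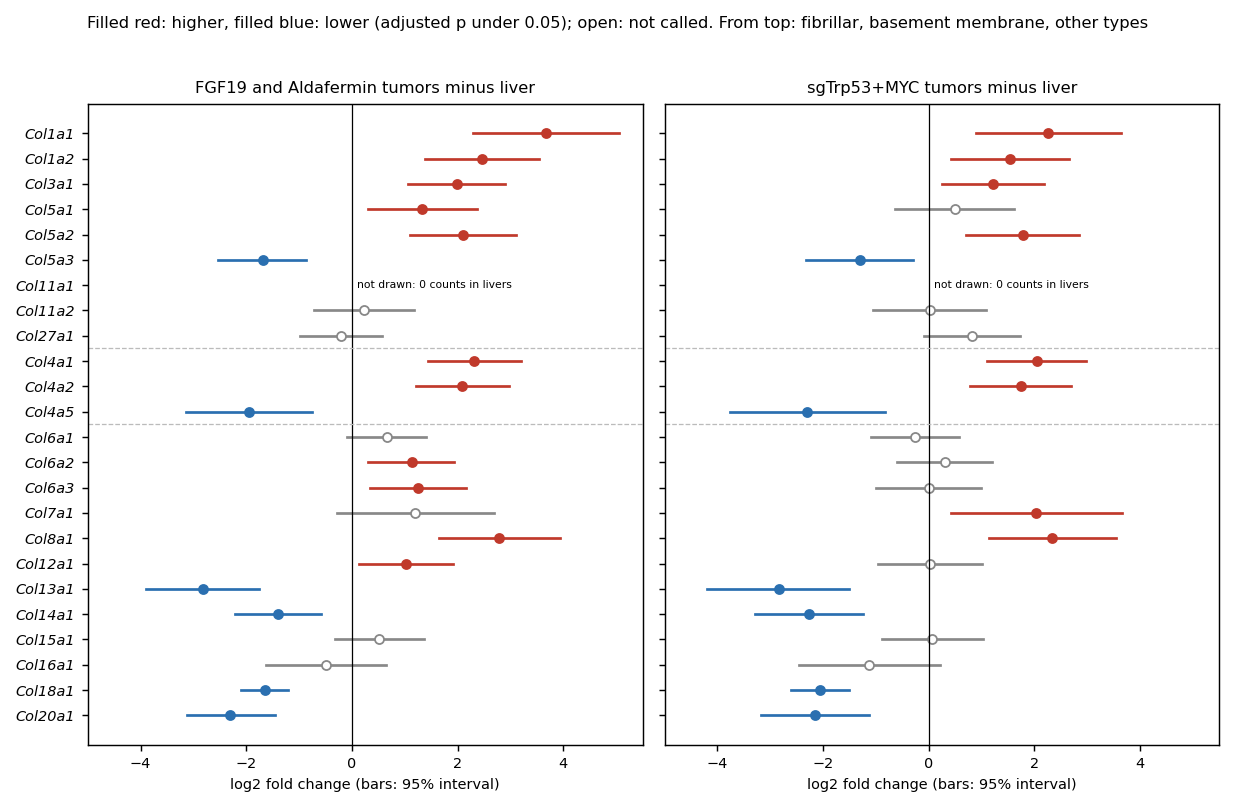
Log2 fold change (x axis) of the tested collagens in the pooled Aldafermin+MYC and FGF19+MYC tumors (left) and in sgTrp53+MYC tumors (right) against livers, with 95% intervals. Col1a1 lies farthest right at 3.68 on the left, Col18a1 lies left of 0 at -1.65 and -2.06, and Col11a1 is not drawn because all livers had 0 counts of it.

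The fibrillar collagens of types I and III were higher in tumors. Col1a1, the alpha 1 chain of type I collagen (chromosome 11, 94827050 to 94843868, GRCm39), was counted at 16.3, 22.3, 6.76, 18.1 and 22.8 CPM in livers 1 to 5, at 145, 98.2, 871, 235 and 49.9 CPM in Aldafermin+MYC tumors, at 38.4, 298, 127, 157 and 252 CPM in FGF19+MYC tumors and at 27.1, 106, 71.1, 92.0 and 119 CPM in sgTrp53+MYC tumors. Every tumor was above every liver, and Aldafermin+MYC replicate 3 stood far above the other 4 tumors of its group. The log2 fold change was 3.68 (SE 0.66, adjusted p = 5.45e-05) for the pooled tumors and 2.26 (SE 0.66, adjusted p = 0.00476) for sgTrp53+MYC tumors against livers.

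Col1a2, the partner chain of type I collagen, was counted at 21.7, 27.5, 14.9, 35.4 and 36.9 CPM in livers, at 120, 60.1, 533, 173 and 67.6 CPM in Aldafermin+MYC tumors, at 33.5, 194, 84.2, 108 and 170 CPM in FGF19+MYC tumors and at 35.8, 95, 82.8, 80.5 and 103 CPM in sgTrp53+MYC tumors. Only FGF19+MYC replicate 1 and sgTrp53+MYC replicate 1 fell within the range of livers. In log2 terms the fold change was 2.46 (SE 0.52, adjusted p = 0.000265) for the pooled tumors and 1.54 (SE 0.54, adjusted p = 0.0152) for sgTrp53+MYC tumors. Col3a1, the chain of type III collagen, which runs with type I in reticular fibers, was counted at 38.6, 51.5, 26.9, 64.9 and 66.3 CPM in livers, at 168, 70.6, 593, 249 and 129 CPM in Aldafermin+MYC tumors, at 54.5, 238, 125, 152 and 233 CPM in FGF19+MYC tumors and at 67.3, 112, 147, 110 and 139 CPM in sgTrp53+MYC tumors. All tumors except FGF19+MYC replicate 1 were above all livers. Its log2 fold change was 1.99 (SE 0.44, adjusted p = 0.000432) for the pooled tumors and 1.21 (SE 0.46, adjusted p = 0.0256) for sgTrp53+MYC tumors, the latter lost when liver replicate 1, liver replicate 3 or sgTrp53+MYC replicate 3 was left out (highest adjusted p = 0.0682).

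Of the type V chains, which sit in the core of type I fibrils and limit their diameter, Col5a1 and Col5a2 were higher and Col5a3 was lower. Col5a2 was counted at 4.66, 5.79, 3.58, 7.17 and 4.98 CPM in livers, at 17.2, 9.65, 81.0, 28.7 and 10.8 CPM in Aldafermin+MYC tumors, at 6.31, 23.9, 15.6, 20.3 and 19.8 CPM in FGF19+MYC tumors and at 6.57, 20.1, 26.8, 16.4 and 19.9 CPM in sgTrp53+MYC tumors. Replicate 1 of the FGF19+MYC and of the sgTrp53+MYC tumors lay below the highest liver, and all other tumors lay above it. The log2 fold change was 2.11 (SE 0.48, adjusted p = 0.00061) for the pooled tumors and 1.78 (SE 0.51, adjusted p = 0.00462) for sgTrp53+MYC tumors. Col5a1 was counted at 15.4, 12.5, 9.06, 18.4 and 13.5 CPM in livers, at 20.1, 18.1, 113, 35.0 and 8.33 CPM in Aldafermin+MYC tumors, at 9.93, 44, 26.6, 31.0 and 42.4 CPM in FGF19+MYC tumors and at 6.93, 21.6, 18, 21.6 and 28.2 CPM in sgTrp53+MYC tumors. The groups overlapped, with a log2 fold change of 1.33 (SE 0.49, adjusted p = 0.0202) for the pooled tumors, lost without liver replicate 3 (adjusted p = 0.0555) and not made with FGF19+MYC tumors alone, and 0.49 (SE 0.54, adjusted p = 0.43) for sgTrp53+MYC tumors.

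Col5a3 was counted at 13.6, 13.5, 25.1, 23.7 and 23.7 CPM in livers, at 6.02, 4.66, 16, 9.61 and 2.97 CPM in Aldafermin+MYC tumors, at 0.893, 7.68, 2.69, 4.78 and 7.91 CPM in FGF19+MYC tumors and at 5.73, 7.33, 8.26, 4.96 and 13.9 CPM in sgTrp53+MYC tumors. Of the 15 tumors, only Aldafermin+MYC replicate 3 and sgTrp53+MYC replicate 5 reached the range of livers. Its log2 fold change was -1.69 (SE 0.40, adjusted p = 0.000831) for the pooled tumors and -1.31 (SE 0.49, adjusted p = 0.022) for sgTrp53+MYC tumors, the latter lost without sgTrp53+MYC replicate 4 (adjusted p = 0.0535). With library size alone, Col5a3 was not called in either comparison. Col11a1, a minor fibrillar chain best known from cartilage, had 0 counts in all 5 livers, 63, 8, 94, 4 and 46 counts in Aldafermin+MYC tumors, 1, 8, 4, 4 and 0 counts in FGF19+MYC tumors and 11, 71, 10, 35 and 57 counts in sgTrp53+MYC tumors. Against a floor of 3 counts over all livers, which covers counting error only, its mean was at least 39.3-fold higher in Aldafermin+MYC, 4.45-fold higher in FGF19+MYC and 18.3-fold higher in sgTrp53+MYC tumors (adjusted p = 0.00217 for the pooled and 0.00136 for sgTrp53+MYC tumors). Col11a1 reached 1 CPM in 3 Aldafermin+MYC and 2 sgTrp53+MYC libraries only, so it entered the test through the groups where it was high, and its calls are a description. Col11a2 (log2 fold change 0.23, SE 0.46, adjusted p = 0.659) and Col27a1 (-0.20, SE 0.37, adjusted p = 0.632) were not called in the pooled tumors.

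**Figure D3:**
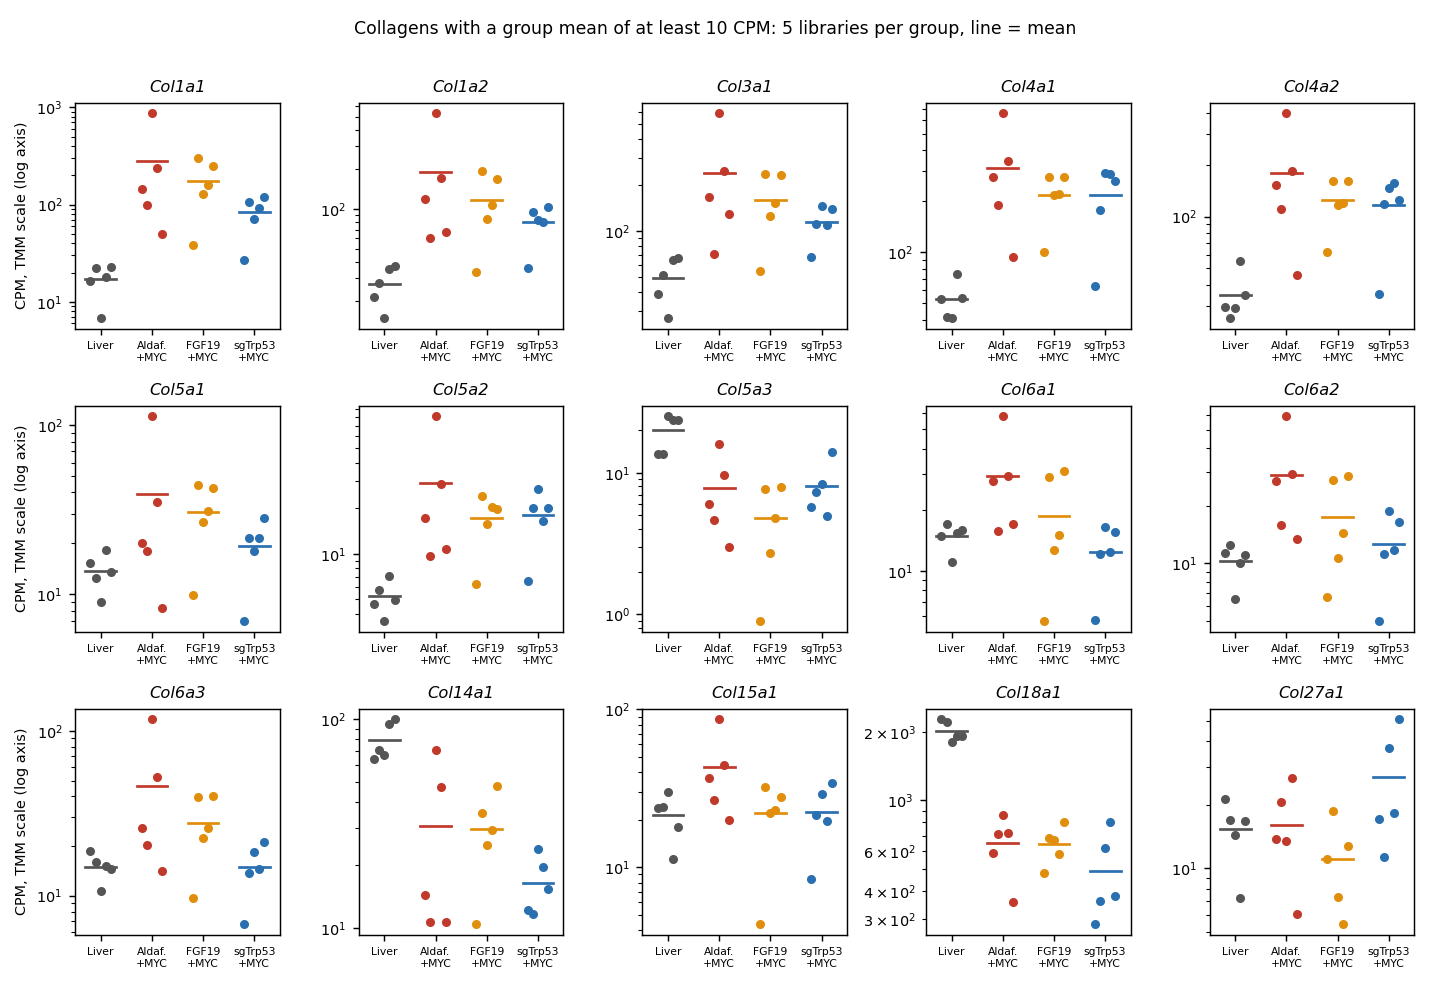
CPM on a log axis of the 15 collagens with a mean of at least 10 CPM in at least 1 group, with 1 point per library and a line at the mean of each group. Col1a1, Col4a1 and Col18a1 show tumors apart from livers (all pooled tumors above livers for the first 2 and below for the third), and Aldafermin+MYC replicate 3 is the highest of its group in 14 of the 15 panels.

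The major type IV chains of basement membranes were higher in tumors. Col4a1 was counted at 52.8, 41.7, 40.8, 74.6 and 53.6 CPM in livers, at 277, 191, 663, 345 and 93.5 CPM in Aldafermin+MYC tumors, at 101, 277, 217, 220 and 277 CPM in FGF19+MYC tumors and at 62.9, 177, 295, 291 and 262 CPM in sgTrp53+MYC tumors. Every tumor except sgTrp53+MYC replicate 1 was above every liver. The log2 fold change was 2.31 (SE 0.42, adjusted p = 5.79e-05) for the pooled tumors and 2.05 (SE 0.45, adjusted p = 0.000449) for sgTrp53+MYC tumors. Col4a2, whose chain joins that of Col4a1 in the common type IV trimer, was counted at 29.8, 25.6, 29.2, 54.8 and 34.9 CPM in livers, at 152, 110, 399, 184 and 45.6 CPM in Aldafermin+MYC tumors, at 62.1, 160, 117, 120 and 161 CPM in FGF19+MYC tumors and at 35.6, 118, 146, 156 and 125 CPM in sgTrp53+MYC tumors. Aldafermin+MYC replicate 5 and sgTrp53+MYC replicate 1 fell within the range of livers. The fold change on the log2 scale was 2.09 (SE 0.42, adjusted p = 0.000191) for the pooled tumors and 1.74 (SE 0.45, adjusted p = 0.00211) for sgTrp53+MYC tumors.

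Both genes lie head to head on chromosome 8 (Col4a1 at 11248423 to 11362826 on the minus strand, Col4a2 at 11362471 to 11499287 on the plus strand, GRCm39), and their exons overlap on opposite strands at the starts of both genes. The strand setting of the counting is not given in the sources used here, so reads in that overlap could have been left out or assigned to either gene. The ratio of Col4a1 to Col4a2 counts stayed between 1.36 and 2.09 in all 20 libraries. The third tested chain of this class, Col4a5, which belongs to the trimer of kidney and other specialised basement membranes, was lower. It was counted at 3.35 to 5.45 CPM in livers and at 0 to 3.84 CPM in tumors, with a log2 fold change of -1.95 (SE 0.57, adjusted p = 0.00456) for the pooled and -2.30 (SE 0.70, adjusted p = 0.00699) for sgTrp53+MYC tumors. Only Aldafermin+MYC replicate 3 reached the range of livers. With library size alone, Col4a5 was no longer called in either comparison, nor with Aldafermin+MYC tumors alone against livers. Col4a3, Col4a4 and Col4a6 did not pass the filter.

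Among the other types, Col18a1 (chromosome 10, 76888012 to 77002390, minus strand, GRCm39) was lower in every tumor. It was counted at 2280, 2210, 1810, 1930 and 1920 CPM in livers (mean 2030 ± 202, SD, n = 5), at 586, 708, 860, 722 and 358 CPM in Aldafermin+MYC tumors, at 477, 684, 669, 580 and 805 CPM in FGF19+MYC tumors and at 285, 362, 615, 800 and 379 CPM in sgTrp53+MYC tumors. The lowest liver was above the highest tumor. The log2 fold change was -1.65 (SE 0.21, adjusted p = 8.85e-07) for the pooled tumors and -2.06 (SE 0.27, adjusted p = 1.18e-06) for sgTrp53+MYC tumors, and with library size alone it was -0.79 and -1.15, still called. All 8 hepatocyte markers in the tables were also lower in both comparisons, and their summed level was 207000 to 266000 CPM in livers against 4590 to 36100 CPM in tumors. Their part in the result for Col18a1 was not tested. Exons of Col18a1 overlap Slc19a1 on the opposite strand.

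The sequences before the starts of Col1a2, Col3a1 and Col18a1 are shown because these genes were among the most abundant collagens and moved in opposite directions between livers and tumors. Each is the stretch of 250 bases before a RefSeq transcript start in GRCm38.p6, with the letters CCAAT on either strand (ATTGG when read on the shown strand) in capitals.
Col1a2, chr6:4505368-4505617, plus strand: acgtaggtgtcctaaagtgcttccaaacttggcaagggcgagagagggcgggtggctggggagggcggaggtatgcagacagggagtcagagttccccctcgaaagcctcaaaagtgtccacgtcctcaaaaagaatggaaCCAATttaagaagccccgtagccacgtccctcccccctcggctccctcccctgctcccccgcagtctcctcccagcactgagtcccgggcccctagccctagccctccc
Col3a1, chr1:45311288-45311537, plus strand: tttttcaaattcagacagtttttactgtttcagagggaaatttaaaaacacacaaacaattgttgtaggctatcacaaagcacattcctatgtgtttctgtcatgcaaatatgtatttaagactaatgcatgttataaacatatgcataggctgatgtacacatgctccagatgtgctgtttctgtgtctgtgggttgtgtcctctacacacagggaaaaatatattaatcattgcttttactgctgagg
Col18a1, upstream start, chr10:77166531-77166780, minus strand: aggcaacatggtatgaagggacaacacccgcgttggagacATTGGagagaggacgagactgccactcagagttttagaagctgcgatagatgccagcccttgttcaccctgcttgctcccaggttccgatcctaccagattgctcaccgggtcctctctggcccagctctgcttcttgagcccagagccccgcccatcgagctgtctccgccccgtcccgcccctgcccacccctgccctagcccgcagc
Col18a1, downstream start, chr10:77113706-77113955, minus strand: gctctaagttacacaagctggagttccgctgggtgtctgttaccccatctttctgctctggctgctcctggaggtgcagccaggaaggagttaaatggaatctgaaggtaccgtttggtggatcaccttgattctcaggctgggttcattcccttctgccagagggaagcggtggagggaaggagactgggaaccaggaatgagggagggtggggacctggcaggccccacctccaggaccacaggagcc
Of the 44 collagens, 35 had at least 1 start in the table, with 38 starts in all. CCAAT was present in 13 of these 38 windows, against 33.8% of all 32851 windows of the same length. It was present once before Col1a2, at 109 bases from the start, and once before the upstream start of Col18a1, at 210 bases. TATAAA on either strand was present in 5 of the 38 windows, against 12.4% of all, and stood before Col3a1 but not before the other starts shown. GGGCGG on either strand was present in 22 of the 38 windows, against 32.7% of all, with 2 matches before Col1a2 and 3 before the upstream start of Col18a1. These matches describe letters only, and no binding was measured.

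Col14a1, a fibril-associated collagen that sits on the surface of type I fibrils, was lower in tumors than in livers. It was counted at 64.1, 70.8, 67.6, 94.5 and 100 CPM in livers, at 14.3, 10.7, 71.1, 47.2 and 10.7 CPM in Aldafermin+MYC tumors, at 10.4, 35.6, 24.9, 29.3 and 47.8 CPM in FGF19+MYC tumors and at 12.2, 11.6, 23.8, 19.5 and 15.3 CPM in sgTrp53+MYC tumors. All tumors except Aldafermin+MYC replicate 3 were below all livers. In log2 terms the fold change was -1.39 (SE 0.39, adjusted p = 0.00323) for the pooled tumors, which with library size alone was -0.51 and not called, and -2.27 (SE 0.49, adjusted p = 0.000374) for sgTrp53+MYC tumors. Col13a1, a transmembrane collagen, was counted at 4.30 to 6.41 CPM in livers and at 0.0534 to 2.60 CPM in tumors, with no overlap and a log2 fold change of -2.82 (SE 0.51, adjusted p = 5.88e-05) for the pooled and -2.84 (SE 0.64, adjusted p = 0.000611) for sgTrp53+MYC tumors. Col20a1, another member of the fibril-associated group, was counted at 3.62 to 6.67 CPM in livers and at 0.165 to 2.17 CPM in tumors, with a log2 fold change of -2.30 (SE 0.40, adjusted p = 3.6e-05) and -2.15 (SE 0.49, adjusted p = 0.000666). Its livers and tumors did not overlap.

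Col8a1, a short-chain collagen known from vessel walls and corneal membranes, was higher in all tumors. It was counted at 0.341 to 1.75 CPM in livers and at 1.79 to 25.6 CPM in tumors, the highest being Aldafermin+MYC replicate 3. The log2 fold change was 2.78 (SE 0.55, adjusted p = 0.00014) for the pooled and 2.34 (SE 0.57, adjusted p = 0.0013) for sgTrp53+MYC tumors. Col8a1 reached 1 CPM in every tumor but in only 1 liver. It thus entered the test through the groups where it was high, and its calls are a description. Col7a1, the anchoring fibril collagen, was called higher in sgTrp53+MYC tumors (log2 fold change 2.03, SE 0.77, adjusted p = 0.025) at a mean of 1.12 ± 1.55 CPM (SD, n = 5), against 0.267 ± 0.125 CPM in livers. Its highest library was sgTrp53+MYC replicate 2 at 3.86 CPM, and without that library, with the same genes tested, the log2 fold change was 0.68 (adjusted p = 0.33). The call was also lost without liver replicate 3 or 4 (highest adjusted p = 0.0587), and Col7a1 passed the filter through 5 tumors and 0 livers. The same library carried Krt19, a biliary keratin, at 191 CPM, and the 7 biliary markers summed to 795 CPM in it, against a group median of 47.0 CPM. The part of such cells in its collagen values was not tested. In the pooled tumors, Col7a1 had a log2 fold change of 1.20 (SE 0.71, adjusted p = 0.134).

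Type VI collagen, which forms beaded filaments around cells, was called higher for Col6a2 and Col6a3 in the pooled tumors, and for no chain in sgTrp53+MYC tumors. Col6a2 was counted at 11.3, 12.5, 6.54, 10 and 11.1 CPM in livers, at 26.9, 15.9, 59.1, 29.5 and 13.4 CPM in Aldafermin+MYC tumors, at 6.64, 27.2, 10.7, 14.4 and 28.6 CPM in FGF19+MYC tumors and at 4.97, 11.2, 18.8, 11.8 and 16.5 CPM in sgTrp53+MYC tumors. All Aldafermin+MYC tumors lay above all livers, whereas the other 2 tumor groups overlapped with livers. Its log2 fold change was 1.13 (SE 0.39, adjusted p = 0.0138) for the pooled tumors and 0.30 (SE 0.43, adjusted p = 0.55) for sgTrp53+MYC tumors. Col6a1 was counted at 14.8, 17.1, 11.1, 15.4 and 15.9 CPM in livers, at 27.7, 15.7, 57.9, 29.2 and 17.0 CPM in Aldafermin+MYC tumors, at 5.64, 29.0, 12.6, 15.1 and 31.1 CPM in FGF19+MYC tumors and at 5.75, 12.1, 16.5, 12.4 and 15.5 CPM in sgTrp53+MYC tumors. All groups overlapped, and its log2 fold change was 0.66 (SE 0.36, adjusted p = 0.103) and -0.26 (SE 0.40, adjusted p = 0.583).

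Col6a3, the longest chain of type VI collagen, was counted at 18.6, 15.9, 10.7, 15.2 and 14.5 CPM in livers, at 25.8, 20.4, 118, 52.3 and 14.1 CPM in Aldafermin+MYC tumors, at 9.66, 39.7, 22.5, 25.6 and 40.1 CPM in FGF19+MYC tumors and at 6.70, 13.7, 18.5, 14.6 and 21.2 CPM in sgTrp53+MYC tumors. Against livers its log2 fold change was 1.25 (SE 0.44, adjusted p = 0.0143) for the pooled tumors and 0.00 (SE 0.47, adjusted p = 0.994) for sgTrp53+MYC tumors. The calls of Col6a2 and Col6a3 were lost when FGF19+MYC tumors alone were set against livers. Col12a1, a fibril-associated collagen, was called higher in the pooled tumors (1.03, SE 0.43, adjusted p = 0.0372), where Aldafermin+MYC replicate 3 stood at 18.5 CPM and all other tumors and livers between 1.06 and 5.47 CPM. Without that library its log2 fold change was 0.56 (adjusted p = 0.0707), and the call was also lost without FGF19+MYC replicate 3 or 5 or any of liver replicates 2 to 5 (highest adjusted p = 0.0883).

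Col15a1, the closest relative of Col18a1, did not differ detectably from livers. It was counted at 23.7, 24.2, 30.1, 11.2 and 17.9 CPM in livers, at 36.6, 26.8, 86.8, 44.6 and 19.9 CPM in Aldafermin+MYC tumors, at 4.35, 32.3, 22.2, 22.9 and 27.8 CPM in FGF19+MYC tumors and at 8.47, 21.3, 29.2, 19.5 and 34.1 CPM in sgTrp53+MYC tumors. Its log2 fold change was 0.52 (95% interval -0.32 to 1.36, adjusted p = 0.252) for the pooled tumors and 0.07 (-0.88 to 1.02, adjusted p = 0.899) for sgTrp53+MYC tumors. Col16a1 was not called either, at -0.49 (-1.62 to 0.64) and -1.13 (-2.46 to 0.21).

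Whether tumors driven with FGF19 or its analog differed from sgTrp53+MYC tumors was asked next. Of the 24 tested collagens, 1 was higher and 1 lower in the mean of Aldafermin+MYC and FGF19+MYC tumors than in sgTrp53+MYC tumors, against 11.6% of all genes higher and 12.1% lower (23.7% in either direction). Col6a3 was higher by 1.26 on the log2 scale (SE 0.43, adjusted p = 0.0412), with overlapping groups in the values given above. Col27a1, a fibrillar collagen of cartilage and other tissues, was counted at 13.7, 20.5, 13.4, 26.8 and 6.06 CPM in Aldafermin+MYC tumors, at 11.1, 18.6, 7.32, 5.43 and 12.7 CPM in FGF19+MYC tumors, at 17.1, 11.3, 37.2, 18.2 and 50.8 CPM in sgTrp53+MYC tumors and at 21.2, 17.0, 14.4, 7.24 and 16.7 CPM in livers. The 2 highest values were sgTrp53+MYC replicates 5 and 3, while the other 3 sgTrp53+MYC tumors lay within the range of the pooled tumors. The log2 difference was -1.02 (SE 0.36, adjusted p = 0.047).

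Both calls were close to the threshold. That of Col6a3 was lost when any 1 of these libraries was left out, namely Aldafermin+MYC replicates 3 and 4, FGF19+MYC replicates 2, 4 and 5 or sgTrp53+MYC replicates 1 to 4 (highest adjusted p = 0.0898). That of Col27a1 was lost in the same way without Aldafermin+MYC replicates 1 and 3, FGF19+MYC replicates 1, 3, 4 and 5, liver replicates 1, 2, 3 and 5 or sgTrp53+MYC replicates 3 and 5 (highest adjusted p = 0.226). Of the 24 collagens, 19 had a positive log2 difference, with a median of 0.42 beside -0.02 over all genes. Without Aldafermin+MYC replicate 3, 17 of the same 24 were positive, with a median of 0.18. The largest differences that missed the threshold at a group mean of at least 10 CPM were those of Col1a1 at 1.41 (95% interval 0.20 to 2.62, adjusted p = 0.0832), Col1a2 at 0.92 (-0.07 to 1.90, adjusted p = 0.169) and Col6a1 at 0.92 (0.16 to 1.67, adjusted p = 0.0708). Col1a1 and Col6a1 were both called by DESeq2, by the likelihood ratio test and without FGF19+MYC replicate 1, Col1a1 also without Aldafermin+MYC replicate 5, and Col6a1 also with Aldafermin+MYC tumors alone. The basement membrane chains differed less, with Col4a1 at 0.27 (-0.52 to 1.05, adjusted p = 0.646) and Col4a2 at 0.36 (-0.45 to 1.16, adjusted p = 0.543). Col18a1 differed by 0.40 (-0.07 to 0.87, adjusted p = 0.209).

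**Figure D4:**
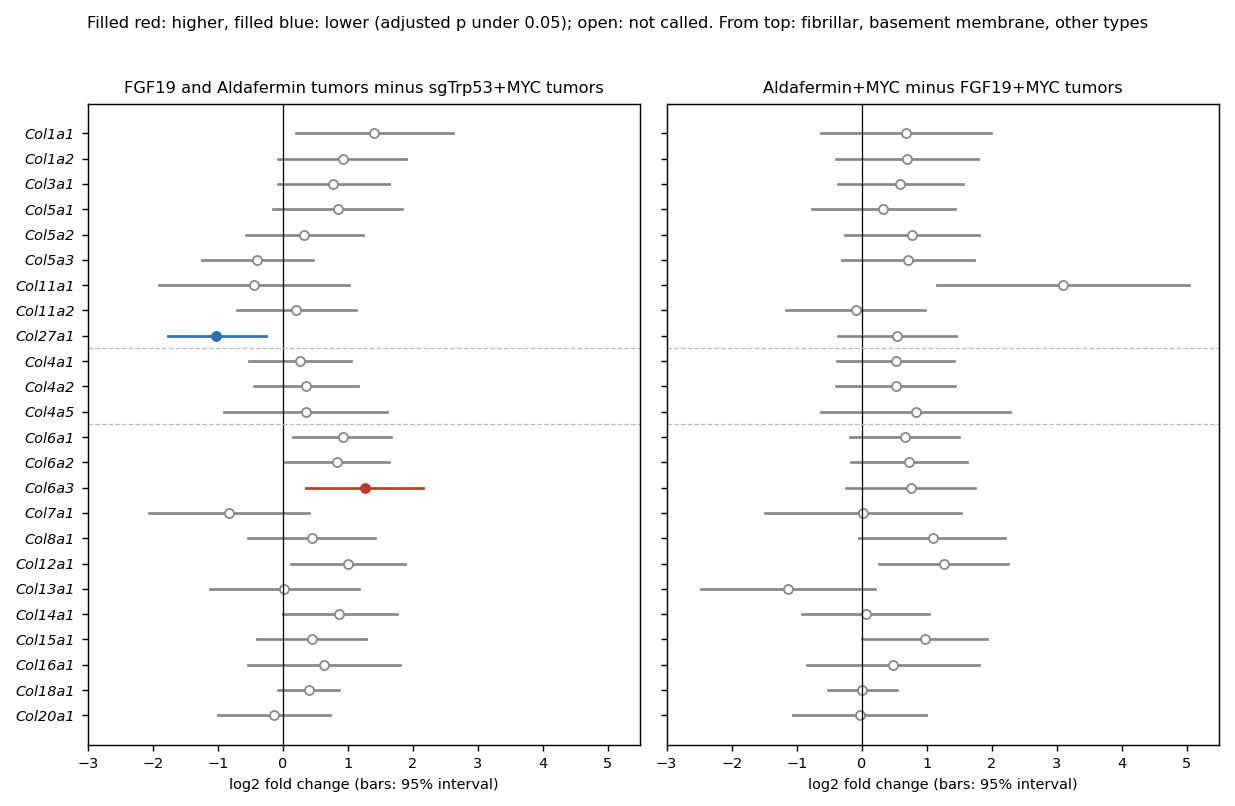
Log2 difference (x axis) of the tested collagens between the pooled Aldafermin+MYC and FGF19+MYC tumors and the sgTrp53+MYC tumors (left) and between Aldafermin+MYC and FGF19+MYC tumors (right), with 95% intervals. Col6a3 (1.26) and Col27a1 (-1.02) are the only filled points on the left, and no point is filled on the right.

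Aldafermin differs from FGF19 by changes in its amino-terminal part that were made to separate metabolic from mitogenic activity, and both groups received plasmids of the same kind. Between Aldafermin+MYC and FGF19+MYC tumors, 0 of the 24 tested collagens were called by edgeR's quasi-likelihood test, against 0% of all genes, while 1048 genes had an unadjusted p under 0.05. DESeq2 called 0 collagens and 96 genes, and edgeR's likelihood ratio test 1 collagen and 71 genes. Of the 24 collagens, 21 had a positive log2 difference, with a median of 0.62 beside 0.02 over all genes. The intervals were wide. For Col1a1 the log2 difference was 0.68 (95% interval -0.63 to 1.99), for Col3a1 0.59 (-0.37 to 1.55), for Col4a1 0.52 (-0.38 to 1.42) and for Col6a3 0.75 (-0.24 to 1.74). The interval was narrowest for Col18a1, at 0.01 (-0.52 to 0.54).

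The positive differences went with Aldafermin+MYC replicate 3, which was the highest of its group in 14 of the 15 collagens with a mean of at least 10 CPM in at least 1 group, all but Col27a1. Without it, 11 of the same 24 collagens had a positive difference, with a median of -0.02, and the log2 difference of Col1a1 was -0.40, that of Col3a1 -0.06 and that of Col4a1 0.06. The mean of the other 4 Aldafermin+MYC tumors was 132 ± 79 CPM for Col1a1 (SD, n = 4), against 280 ± 337 CPM with it and 174 ± 103 CPM in FGF19+MYC tumors (n = 5). For Col4a1 the mean without it was 227 ± 109 CPM, against 218 ± 71.8 CPM in FGF19+MYC tumors. In FGF19+MYC tumors, replicate 1 was the lowest in 14 of the 15 genes, and in sgTrp53+MYC tumors replicate 1 was the lowest in 12. The ratio of the highest to the lowest library of a group had a median over the 15 genes of 7.09 in Aldafermin+MYC, 4.37 in FGF19+MYC and 3.78 in sgTrp53+MYC tumors, against 2.00 in livers. Col11a1 had the largest difference, at 3.10 (1.16 to 5.04, adjusted p = 0.356), with 4 to 94 counts in Aldafermin+MYC and 0 to 8 in FGF19+MYC tumors.

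The 20 collagens that did not pass the filter stayed below 1 CPM in every group mean, at most 0.818 CPM, and at most 1.83 CPM in any library. They were Col2a1 and Col24a1 of the fibrillar class, Col4a3, Col4a4 and Col4a6 of the basement membrane class, and 15 of the other types. Col2a1, the main collagen of cartilage, had 0 counts in livers and means of at most 0.0711 CPM in tumors. Col10a1, the collagen of hypertrophic cartilage, had 0 counts in livers and in FGF19+MYC tumors, 31 counts over the Aldafermin+MYC and 39 over the sgTrp53+MYC tumors, 30 of the latter in replicate 2. That library also had Acan, a cartilage proteoglycan, at 128 CPM, against at most 0.0729 CPM in any other, and the highest Col11a1 of its group by count (71). The part of cartilage markers in these values was not tested. Col23a1 and Col25a1, transmembrane collagens, had their highest means in livers, at 0.458 ± 0.165 and 0.211 ± 0.104 CPM (SD, n = 5). Without the filter, 29921 genes were tested against livers, of which 13140 were called for the pooled tumors and 12085 for sgTrp53+MYC tumors. Of the 20 collagens, 4 were called lower and 1 higher for the pooled tumors, and 5 lower and 1 higher for sgTrp53+MYC tumors. Col24a1, Col25a1, Col4a3 and Col6a6 were lower in both. Col24a1, a minor fibrillar chain, was at 0.221 to 0.677 CPM in livers and 0 to 0.182 CPM in tumors, and Col6a6, a further type VI chain, at 0.143 to 0.478 CPM and 0 to 0.115 CPM, neither with any overlap.

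Levels of different genes were compared as CPM per kilobase of exon. Col18a1 had the highest level per kilobase in all 4 groups, at 287 ± 28.5 in livers, 91.6 ± 26.7 in Aldafermin+MYC, 91.0 ± 17.3 in FGF19+MYC and 69.1 ± 30.2 in sgTrp53+MYC tumors (SD, n = 5, CPM per kilobase of the union of exons). In livers Col14a1 followed at 11.3 ± 2.37 CPM per kilobase and Col4a1 at 7.06 ± 1.83. In FGF19+MYC tumors Col4a1 followed Col18a1 at 29.3 ± 9.62 CPM per kilobase and Col1a1 at 26.5 ± 15.7, which did not differ beyond their spread. With the length of the longest transcript in place of the union, Col18a1 stayed first in all groups and Col14a1 second in livers, the order of Col1a1, Col4a1 and Col3a1 stayed in FGF19+MYC tumors, and it changed in the other 3 groups. The balance of the type I chains also differed between groups. The ratio of Col1a1 to Col1a2 counts was 0.454 to 0.811 in livers, 0.757 to 1.15 in sgTrp53+MYC tumors, 0.738 to 1.63 in Aldafermin+MYC tumors and 1.14 to 1.54 in FGF19+MYC tumors, so that FGF19+MYC tumors lay above all livers and the other groups overlapped with them. The ratio of Col3a1 to Col1a1 counts was 2.31 to 3.99 in livers and 0.681 to 2.58 in tumors.

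Genes that fold, secrete, cleave and crosslink collagen did not move as a block. Of a list of 44 such genes, 39 were tested. In the pooled tumors against livers 13 were higher and 12 lower, in sgTrp53+MYC tumors against livers 8 were higher and 14 lower, in the pooled against sgTrp53+MYC tumors 8 were higher and 4 lower, and between Aldafermin+MYC and FGF19+MYC tumors 0 were called. The median log2 fold change was -0.09, -0.23, 0.49 and 0.19 in this order, beside 0.10, 0.07, -0.02 and 0.02 over all genes. The backgrounds of called genes are those given for the collagens.

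Within this list, Crtap and P3h1, whose proteins act in a complex that hydroxylates certain prolines at their carbon 3, were higher in tumors. Crtap was counted at 8.47 to 17.3 CPM in livers and 46.9 to 80.4 CPM in tumors, with a log2 fold change of 2.35 (SE 0.17, adjusted p = 3.39e-10) for the pooled and 2.39 (SE 0.19, adjusted p = 1.07e-09) for sgTrp53+MYC tumors, and no overlap. P3h1 was higher by 1.33 (SE 0.15, adjusted p = 2.22e-07) in the pooled tumors and was also called higher in sgTrp53+MYC tumors. Lox, the lysyl oxidase that starts the crosslinking of fibrils, was counted at 0 to 0.309 CPM in livers and 1.37 to 19.3 CPM in tumors. Its log2 fold change was 4.42 (SE 0.58, adjusted p = 1.25e-06) for the pooled and 3.95 (SE 0.60, adjusted p = 9.4e-06) for sgTrp53+MYC tumors, and its highest value was again that of Aldafermin+MYC replicate 3. Lox passed the filter through tumors alone, so its calls are a description, and its fold sizes rest on very low liver values. Tmem131, which takes part in collagen secretion, was higher in sgTrp53+MYC tumors (0.97, SE 0.22, adjusted p = 0.0006) and was also called higher in the pooled tumors.

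Mia3, a cargo receptor that loads collagen for export, was lower in tumors. It was counted at 294 to 458 CPM in livers and at 43.0 to 105 CPM in tumors, with a log2 fold change of -2.39 (SE 0.16, adjusted p = 5.62e-11) for the pooled and -2.50 (SE 0.20, adjusted p = 1.24e-09) for sgTrp53+MYC tumors. Bmp1, a protease that cleaves the C-propeptide, was also lower, with a log2 fold change of -2.22 (SE 0.22, adjusted p = 2.02e-08) and -3.13 (SE 0.28, adjusted p = 8.43e-09). Dcn, the fibril-binding proteoglycan decorin, was at -2.93 (SE 0.37, adjusted p = 7.69e-07) in the pooled tumors, and Plod1, a lysyl hydroxylase, at -2.35 (SE 0.28, adjusted p = 4.73e-07) in sgTrp53+MYC tumors. Both Dcn and Plod1 were called lower in each comparison with livers. Between tumors, Adamts14, a protease of the N-propeptide, was higher in the pooled than in the sgTrp53+MYC tumors (2.20, SE 0.45, adjusted p = 0.00196), as were Plod3 (0.73, SE 0.16, adjusted p = 0.0034) and P3h1 (0.64, SE 0.15, adjusted p = 0.00459). Itga2, a collagen-binding integrin, was lower there (-2.63, SE 0.74, adjusted p = 0.0155), where sgTrp53+MYC replicate 2 stood at 31.5 CPM and its other 4 tumors at 0.609 to 1.29 CPM. Mia2, a relative of Mia3 (-0.35, SE 0.11, adjusted p = 0.026), and P4ha2, a prolyl hydroxylase (-0.97, SE 0.33, adjusted p = 0.0392), were lower as well.

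Markers of the cells that make fibrillar collagen were set beside these results. The 16 stellate cell and fibroblast markers summed to 376 to 535 CPM in livers, 85.1 to 507 CPM in Aldafermin+MYC tumors, 117 to 278 CPM in FGF19+MYC tumors and 87.8 to 229 CPM in sgTrp53+MYC tumors, with none of the 16 at 0 throughout a group. Against livers, 4 of the 16 were called higher for the pooled tumors and 9 lower, and 3 higher for sgTrp53+MYC tumors and 8 lower. The shares over all genes, 39.2% higher and 34.5% lower for the pooled and 36.9% and 33% for sgTrp53+MYC tumors, are the background of these and of the other marker counts against livers. Acta2, a smooth muscle actin of contractile and activated stellate cells, was counted at 1.32 to 2.87 CPM in livers and 10.8 to 155 CPM in tumors, with a log2 fold change of 4.84 (SE 0.53, adjusted p = 9.93e-08) for the pooled tumors. Tagln (2.28, SE 0.44, adjusted p = 9.98e-05), Gli1 (3.98, SE 0.46, adjusted p = 1.93e-07) and Thy1 (1.49, SE 0.44, adjusted p = 0.00548) were the other 3 that were higher. Gli1 was at 0.0683 to 0.438 CPM in livers and passed the filter through tumors alone, so its calls against livers are a description. Lrat, the enzyme with which quiescent stellate cells store retinol, was counted at 19.9 to 34.4 CPM in livers and 0.0992 to 3.62 CPM in tumors, with a log2 fold change of -4.54 (SE 0.55, adjusted p = 4e-07). Reln, another gene of quiescent stellate cells, was also lower (-3.71, SE 0.67, adjusted p = 5.61e-05). Dcn, Hand2, Hgf, Lum, Ngfr, Pdgfra and Rgs5 were the other markers called lower for the pooled tumors, and Des, Pdgfrb and Postn were not called. Of the 5 muscle markers, a list that shares Des, 2 were tested and Myh11 was called higher for the pooled tumors.

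The library with the highest fibrillar sum, Aldafermin+MYC replicate 3 at 2220 CPM, also had the highest stellate and fibroblast marker sum among tumors, 507 CPM, and the highest Acta2, 155 CPM. Its macrophage markers also had the highest sum among tumors, 306 CPM, whereas the highest endothelial sum among tumors, 222 CPM, was that of an FGF19+MYC library. Of the 10 endothelial markers, whose cells lay down basement membrane, 1 was called higher for the pooled tumors and 5 lower, and 0 higher for sgTrp53+MYC tumors and 7 lower, with summed levels of 268 to 419 CPM in livers and 67.1 to 222 CPM in tumors. Between the pooled and the sgTrp53+MYC tumors, 3 of the 16 stellate and fibroblast markers were higher and 0 lower, against 11.6% and 12.1% of all genes, namely Acta2 (1.29, SE 0.42, adjusted p = 0.0303), Tagln (1.39, SE 0.41, adjusted p = 0.0191) and Gli1 (1.37, SE 0.36, adjusted p = 0.0107). Against livers, 1 of 7 macrophage markers was called higher for the pooled tumors and 4 lower, and 1 higher for sgTrp53+MYC tumors and 6 lower, with sums of 293 to 429 CPM in livers and 56.6 to 306 CPM in tumors. Markers of T and NK cells summed to at most 8 CPM and those of muscle to at most 36 CPM in any library. Markers of cartilage or bone, a list that shares Sox9 with the biliary one, summed to at most 7.03 CPM outside the sgTrp53+MYC group, whose median was 1.30 CPM and whose highest library was at 151 CPM, and Ibsp was at 0 throughout all groups. The part of these markers in the collagen results was not tested.

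**Figure D5:**
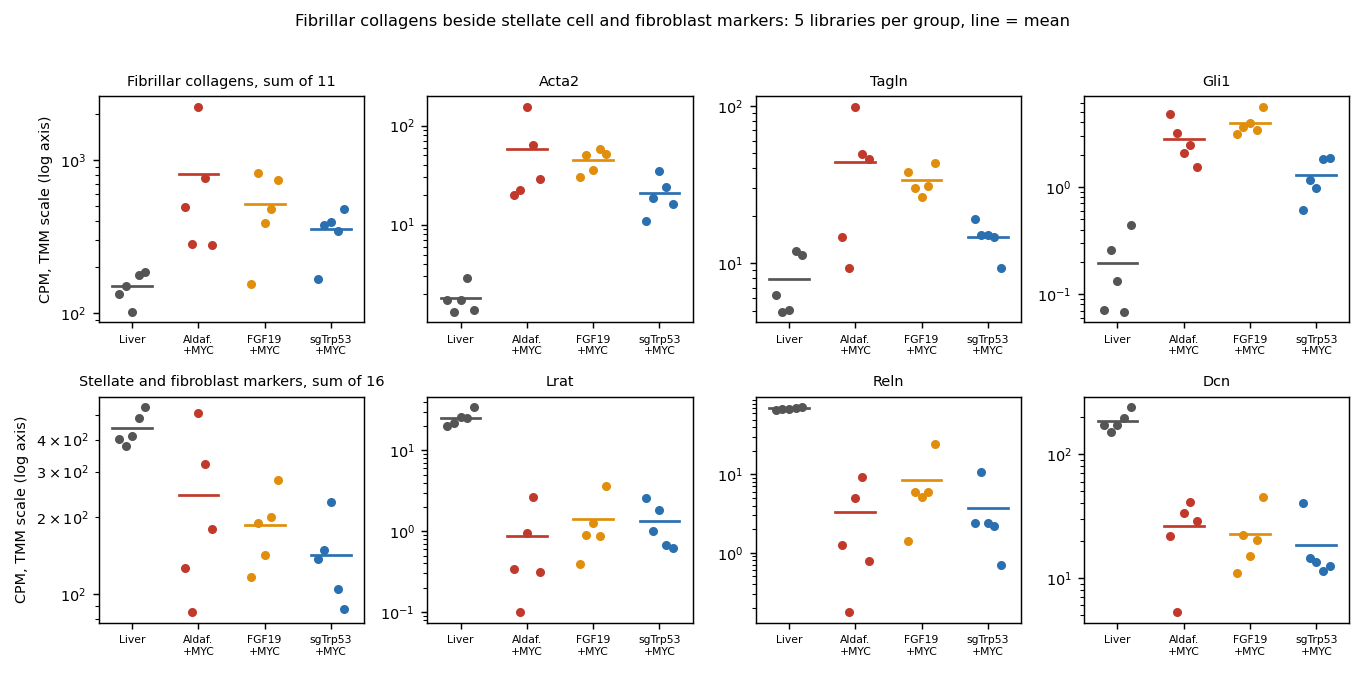
CPM on a log axis of the 11 fibrillar collagens summed and of 16 stellate cell and fibroblast markers summed (left column), and of 6 of these markers alone, with 1 point per library and a line at the group mean. Acta2 and Gli1 lie above the livers in all tumors and Lrat, Reln and Dcn below them, while the sum of the 16 markers is 376 to 535 CPM in livers and 85.1 to 507 CPM in tumors.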

How the data were processed

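Stranded mRNA libraries were sequenced, and the authors aligned reads with HISAT2 to the mouse genome Mm39 and counted them per RefSeq gene with htseq-count. The deposited values are these raw counts, whole numbers without normalization, in 2 tables, from which 5 summary lines were removed. The 14333 genes that reached 1 CPM in 5 or more libraries were fitted in R 4.3.3 with edgeR 4.0.16 (TMM, 1 quasi-likelihood model of 4 groups, robust), with Benjamini-Hochberg adjustment over all genes tested and a threshold of 0.05. CPM of all genes use the TMM factors of these genes. Total counts of 18004977 to 66354724 reads set the precision, and the floor of 3 counts covers counting error only. Replicate numbers of the titles belong to separate mice and pair nothing. Libraries of a group were not copies of each other (chi-square over its degrees of freedom at least 13.9). The script was tested on simulated data.

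The collagens, classes, processing list and markers were chosen with earlier results of these data known. Values per library were given for collagens with a mean of at least 10 CPM in at least 1 group, tests for other tested collagens that were called at a group mean of at least 1 CPM, and from the processing list the 3 smallest adjusted p in each direction of each comparison. Any further gene, and the collagens named as not called or not tested, were picked with their values in view. Coordinates and exon lengths are from GENCODE for GRCm39, and promoters from RefSeq for GRCm38.p6. Alternatives were DESeq2 1.42.0, edgeR's likelihood ratio test, other scalings and filters, only the groups compared, the replicate number as a block, offsets for GC content and exon length, each tumor group alone and each library left out.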

Additional observations from a re-analysis of the deposited data

Results flagged for a closer look

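A gap test within groups of 5 libraries (Dixon's 95% value) was applied to the 15 collagens with a mean of at least 10 CPM in 4 groups, 60 groups in all, of which chance would pick about 3. It picked 4, near that number, all of them the highest value of Aldafermin+MYC replicate 3. The test used CPM without a log, a scale that widens gaps between high values, and log values were not tested. The collagens of a library are not independent of each other. Col1a1 was at 871 CPM there, against 49.9 to 235 CPM in the others. Col1a2 was at 533 CPM, against 60.1 to 173 CPM. Col5a1 was at 113 CPM, against 8.33 to 35.0 CPM, and Col5a2 at 81.0 CPM, against 9.65 to 28.7 CPM. The same library had Acta2 at 155 CPM, Lox at 19.3 CPM and Col8a1 at 25.6 CPM, each the highest of the 20 libraries.

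Between the pooled Aldafermin+MYC and FGF19+MYC tumors and the sgTrp53+MYC tumors, edgeR's quasi-likelihood test called 2 collagens. Livers cancel out when changes from the same livers are compared, so these are the calls given above and no further test. Against livers, Col27a1 was not called in either tumor comparison (adjusted p = 0.632 for the pooled and 0.101 for sgTrp53+MYC tumors). For Col6a3 the difference was 1.26 (adjusted p = 0.0412), and for Col27a1 it was -1.02 (adjusted p = 0.047), both on the log2 scale. Since sgTrp53+MYC libraries form a table of their own, table and group cannot be told apart in these values.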

How the results depend on the processing

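Of the single collagens compared, 2658 values under an alternative kept direction and side of the threshold, 76 stayed uncalled with the other sign, 61 lost the call and 26 gained it, with 0 called values of the other sign. Leaving out a library dropped Col7a1 and Col11a1 from the genes tested in some fits, so these were also fitted, an alternative chosen after seeing the data, with the genes of the main analysis kept. For the pooled tumors against sgTrp53+MYC tumors, the count of higher collagens was 1 in the main analysis, 3 by DESeq2, 3 by the likelihood ratio test and 3 with Aldafermin+MYC tumors alone. It was 0 with library size alone, 0 without the filter, 0 with only the groups compared, 0 with FGF19+MYC tumors alone and 0 with the replicate block, and the count of lower collagens, 1 in the main analysis, was 0 with only the groups compared, 0 with each tumor group alone and 0 with the replicate block. The block moved no other count by over 1.5 times; the 30 same-numbered pairs of libraries had a mean correlation of deviations of -0.0194 (-0.333 to 0.333), against 0.00826 for other numbers, and 1 of 20 libraries correlated best with its own number. Collagens lower than in livers numbered 3 with library size alone for the pooled tumors and, without the filter, 10 for the pooled and 10 for sgTrp53+MYC tumors, more collagens (44) then being tested. Over all genes and in either direction, the pooled tumors had 11391 calls of 14333 with library size alone and 13140 of 29921 without the filter. For sgTrp53+MYC tumors without the filter, 12085 genes were called. Between Aldafermin+MYC and FGF19+MYC tumors, the likelihood ratio test called 1 collagen higher. For all genes this comparison gave 0 calls in the main analysis, 96 by DESeq2, 71 by the likelihood ratio test, 2 with RLE size factors and 8 with GC and length offsets. Leaving out each library in turn gave 0 to 0 collagens higher and 0 to 0 lower between Aldafermin+MYC and FGF19+MYC tumors, 0 to 3 and 0 to 1 for the pooled against sgTrp53+MYC tumors, 10 to 13 and 6 to 6 for the pooled tumors against livers, and 7 to 9 and 5 to 6 for sgTrp53+MYC tumors against livers. The causes were not tested.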
